A study of Arabidopsis thaliana with 4 samples.

Results

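The phosphate uptake and SPX signalling genes of Arabidopsis thaliana are 10 loci that bring phosphate into the root, load it into the xylem and sense it. They comprise the transporter genes PHT1;1 (AT5G43350), PHT1;2 (AT5G43370), PHT1;3 (AT5G43360) and PHT1;4 (AT2G38940), the exporter gene PHO1 (AT3G23430), PHO2 (AT2G33770), PHR1 (AT4G28610), SPX1 (AT5G20150), SPX2 (AT2G26660) and SPX3 (AT2G45130). These 10 of the 37899 annotated genes on chromosomes 1 to 5 were chosen by locus, and all 10 were found in the RefSeq annotation of TAIR10.1. A peak was counted for a gene where it overlapped the span from 1000 bp upstream of the annotated transcription start site (TSS) to the end of the gene. The data are 4 CUT&Tag libraries of the histone mark H3K4me3 from roots of the wild-type accession Col-0, with 2 control and 2 stress replicates. In CUT&Tag an antibody against a chromatin mark guides a transposase, which cuts and tags the DNA near the mark for sequencing. Plants grew for 10 days on 1/2MS medium in the control group and on 1/2MS with 250 mM sorbitol, an osmotic stressor, in the stress group. The label names root as the tissue, and the study took root tips. Nothing in the sources names a change in phosphate supply, and the tissue is a mixture of all root cell types. A larger share of cells that carry the mark at a gene and more of the mark per cell cannot be told apart in such bulk samples.

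PHT1 proteins sit in the plasma membrane and take up phosphate together with protons. PHO1 exports phosphate from the cells of the stele to the xylem, and PHO2 is a ubiquitin-conjugating enzyme that promotes the breakdown of PHT1 and PHO1 proteins and is itself repressed by the microRNA miR399. PHR1 is a MYB transcription factor that activates phosphate starvation genes through the P1BS motif, and SPX proteins bind and hold back PHR1 when phosphate is plentiful. H3K4me3 is a mark of the 5′ ends of transcribed genes.

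The upstream sequences were searched for P1BS, spelled GNATATNC, which is its own reverse complement, so that both strands were covered by 1 search and no other motif was searched. A match describes letters and not a bound site. The motif occurs in the 1000 bases upstream of the TSS of 20.3% of 27444 protein-coding genes and in the 250 bases upstream of 5.46%. It was found in the 1000 bases of 6 of the 10 genes, at 9 places, and in the 250 bases of 2 genes, PHT1;2 and SPX3. PHT1;4, PHO1, PHR1 and SPX2 had no match in 1000 bases. The first sequence below is the upstream stretch of PHT1;1, at chr5:17402759-17403008 on the minus strand, which lies 850 to 601 bp before the TSS and was covered by a peak of both stress libraries and of neither control library. The second is the 250 bases upstream of SPX3, at chr2:18606160-18606409 on the plus strand, where the motif occurs at 2 places and no library had a peak. The third is the 250 bases upstream of PHO1, at chr3:8393468-8393717 on the minus strand, the promoter of the single gene of the 10 whose signal passed the test, where the motif does not occur. All are RefSeq TAIR10.1 sequence, 5′ to 3′ in the direction of transcription, with P1BS in capitals.
PHT1;1 upstream stretch: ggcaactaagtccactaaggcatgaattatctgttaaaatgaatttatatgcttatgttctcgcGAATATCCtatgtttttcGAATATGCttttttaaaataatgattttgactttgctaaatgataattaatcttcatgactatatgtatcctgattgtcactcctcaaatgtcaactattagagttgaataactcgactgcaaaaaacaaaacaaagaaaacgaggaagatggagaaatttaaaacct
SPX3 promoter: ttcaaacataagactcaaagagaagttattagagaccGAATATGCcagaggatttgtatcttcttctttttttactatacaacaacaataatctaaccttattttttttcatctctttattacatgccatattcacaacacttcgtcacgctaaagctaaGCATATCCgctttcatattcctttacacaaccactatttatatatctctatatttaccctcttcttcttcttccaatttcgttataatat
PHO1 promoter: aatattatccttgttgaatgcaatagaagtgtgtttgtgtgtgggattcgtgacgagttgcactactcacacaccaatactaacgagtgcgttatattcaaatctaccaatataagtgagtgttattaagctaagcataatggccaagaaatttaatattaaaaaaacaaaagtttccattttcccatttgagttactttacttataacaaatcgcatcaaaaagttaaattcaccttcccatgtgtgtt

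Of the 9 P1BS matches, 2 lay inside a peak, and both were those of PHT1;1, which begin 786 and 768 bp before the TSS. The remaining 7 lay in no peak of any library. Those of PHT1;2, PHT1;3 and SPX3 could not, since these genes had no peak in their spans. How often the motif lies in a peak over all genes was not tested. The matches in the other PHT1 genes are shown with 10 flanking bases on each side because PHT1;2, 42 bp before its TSS at chr5:17415656-17415663, and PHT1;3, 393 bp before its TSS at chr5:17409131-17409138, are identical over 19 bases from the base before the motif on. Both are on the plus strand.
PHT1;2 site: atataaatatGGATATACccttaagatt
PHT1;3 site: aataaaatgtGGATATACccttaagatt

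The control libraries held 9011630 (replicate 1) and 6396842 (replicate 2) fragments, and the stress libraries were deeper, with 15974955 (replicate 1) and 25714827 (replicate 2), so depth and condition cannot be told apart. The signal used here is the pileup, the number of fragments stacked at the highest point of a peak, per 1000000 fragments of its library, written FPM below. It is known only where a library has a peak. The lowest pileup that any peak reached was 0.888 and 1.41 FPM in the control and 0.689 and 0.467 FPM in the stress libraries, so weaker peaks were called in stress. The fold enrichment sets the pileup against the background of the same library in the surrounding 10000 bp. Across the 16947 genes with a peak in every library, the median log2 change from control to stress was -0.0016, with a 5th percentile of -0.53 and a 95th percentile of 0.44.

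Of the 10 genes, 7 had a peak in at least 1 library, and 5 of these had one in every library (PHT1;1, PHO1, PHO2, PHR1 and SPX2), as did 78.5% of the 21594 genes with a peak anywhere. SPX1 had one in 3 libraries. PHT1;4 was marked by a peak in each stress library and in no control library, a pattern shown by 1534 genes (7.10%), whereas none of the 10 genes showed the reverse pattern, which 0.417% of genes did. PHT1;2, PHT1;3 and SPX3 had none in any library, against 43.0% of all genes and 32.1% of protein-coding genes with none. The number of the 10 genes with a peak was 5 and 6 in the control libraries and 7 in each stress library. No peak counted for more than 1 of the genes, and this holds for the PHT1 neighbours on chromosome 5 too. In the limma test, 1 of the 5 genes with a peak in every library differed, and it was lower in stress, beside 19.3% of all genes tested (8.31% higher and 11.0% lower).

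**Figure D1:**
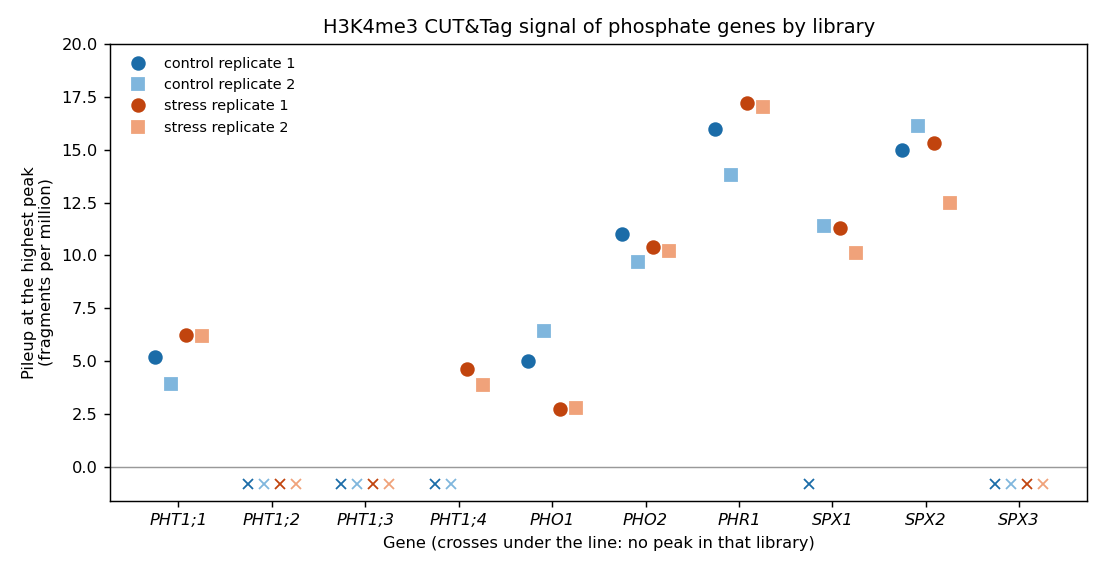
Pileup in FPM (fragments per 1000000) at the highest peak of each of the 10 genes (vertical axis) in the 2 control and 2 stress libraries, with a cross below the line where a library had no peak. Both stress points of PHO1, at 2.75 and 2.80, lie below both control points, PHT1;4 has stress points only, and PHT1;2, PHT1;3 and SPX3 have none.

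PHT1;1, a main phosphate importer of the root surface, lies at chr5:17399769-17402158 on the minus strand. Its highest peak reached 5.22 and 3.91 FPM in the control replicates (1, then 2) and 6.26 and 6.18 FPM in the stress replicates. The groups did not overlap, and the lowest value was that of control replicate 2. The means were 4.56 ± 0.924 (SD, n = 2) and 6.22 ± 0.0542 (SD, n = 2) FPM, a log2 difference of 0.46 (SE 0.18, 95% interval 0.11 to 0.82) that did not pass the limma test (adjusted p = 0.057). Fold enrichment gave 4.83 and 3.70 for control against 5.48 and 5.51 for stress, and the log2 difference of 0.38 passed the limma test (adjusted p = 0.048), beside 7.72% of all genes called higher and 6.07% called lower on that scale. The pileup passed too, at the same log2 difference, when peaks had to lie within 1 kb of the TSS (limma, adjusted p = 0.048) or have their summit inside the span (limma, adjusted p = 0.043), and in merged regions (limma, adjusted p = 0.047). The value thus lay close to the threshold, and its call turned on the measure and on how peaks were assigned. Without control replicate 1 the log2 difference was 0.67 (limma, adjusted p = 0.016) and without control replicate 2 it was 0.25 (limma, adjusted p = 0.44). The level of the gene was low, at percentile 3.50 of the genes tested.

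The peaks over the start of PHT1;1 differed in extent as well as in height. Their lengths were 1252 and 478 bp in control and 1806 and 1880 bp in stress. The control peaks began 383 bp before and 30 bp after the TSS, and the stress peaks began 907 and 971 bp before it. Their summits lay close together, at 220, 405, 320 and 278 bp after the TSS in the same order of libraries. The peak of control replicate 2 did not cover the TSS at all. The stress peaks thus took in 524 bp that both shared and neither control peak reached, at chr5:17402542-17403065, and both P1BS matches shown above lie in it. The stress libraries were also the deeper ones, and peak edges were not redrawn at equal depth. Condition and depth therefore cannot be told apart in this extent.

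A further peak at the 3′ end of PHT1;1 was called in the stress libraries and in neither control library. It reached 3.57 FPM over 416 bp in stress replicate 1 and 3.03 FPM over 609 bp in stress replicate 2, with fold enrichments of 3.10 and 2.67. Its summit lay 2219 bp after the TSS in both libraries. When the pileups were scaled to the 6396842 fragments of the smallest library, the peak of stress replicate 1 still passed the authors' p cutoff of 1e-05 and that of stress replicate 2 did not. Between the start and the 3′ peaks of stress lay a stretch without a peak, and there the sequence is shared with PHT1;2. Of the 1023 windows of 100 bases in it, 653 (63.8%) occur a second time in the genome, whereas at most 0.173% of the windows inside any PHT1;1 peak do. How the authors placed fragments with more than 1 possible origin is not given in the sources used here, and its part in this pattern was not tested.

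**Figure D2:**
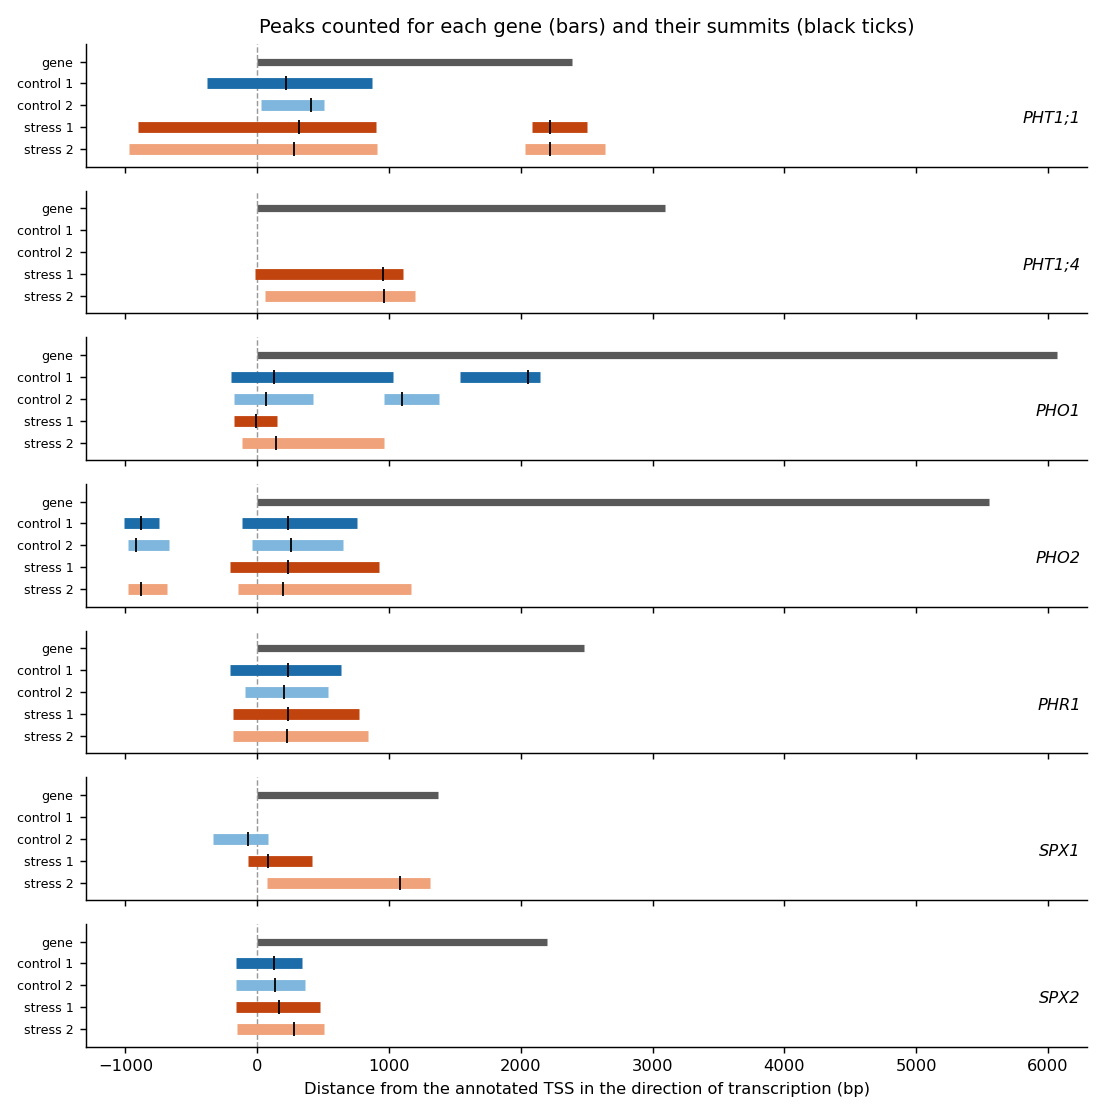
Peaks counted for the 7 genes with at least 1 peak, drawn as bars by library against the distance from the annotated TSS in bp (grey, the gene; black ticks, summits). At PHT1;1 the bars over the TSS are longer in stress (1806 and 1880 bp) than in control (1252 and 478 bp) and a 3′ bar appears in stress, whereas the gene body bars of PHO1 appear in control.

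The other PHT1 genes of the chromosome 5 cluster carried no counted peak. PHT1;2, at chr5:17415698-17417972, and PHT1;3, at chr5:17409524-17411214, are importers on the plus strand that resemble PHT1;1 at 97.7% of 1728 aligned bp and 86.8% of 1717 aligned bp. The 97.7% match means that 655 of 3176 windows of 100 bases in the span of PHT1;2 (20.6%) are found elsewhere, so a fragment from them has more than 1 possible origin, whereas no window of PHT1;3 is. The peaks nearest to the span of PHT1;3 were weak ones 216 bp away in both stress libraries, at 1.31 and 1.21 FPM, and in the control libraries the nearest were 5983 and 6396 bp away. Near PHT1;2 the closest was a peak of 1.09 FPM 280 bp away in stress replicate 2, and in the others at least 3385 bp separated span and peak. These pileups lie under the lowest of any peak in control replicate 2 (1.41 FPM) but above that of control replicate 1 (0.888 FPM). PHT1;6, the remaining PHT1 gene of this cluster, had no peak in any library.

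PHT1;4, an importer that acts beside PHT1;1 in the root, lies apart from them at chr2:16257157-16260253 on the plus strand and none of its windows is repeated. Its peak reached 4.63 FPM over 1120 bp in stress replicate 1 and 3.89 FPM over 1137 bp in stress replicate 2. Both control libraries lacked it. The fold enrichments were low, 2.46 and 2.14, and the summits lay 956 and 961 bp after the TSS, inside the gene. At the depth of the smallest library the peak of stress replicate 1 would still have passed the cutoff and that of stress replicate 2 would not. The pileup of the control libraries at this place is not known, so no fold was computed. With each missing value set to the lowest pileup of its library, limma gave an adjusted p of 0.083. The filled control values, 0.888 and 1.41 FPM, lay under the local background here in stress, 1.84 and 1.79 FPM. That p-value therefore rests on no control signal measured at PHT1;4.

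PHO1, which loads phosphate into the xylem, lies at chr3:8387398-8393467 on the minus strand and was the gene whose signal fell. Its highest peak reached 4.99 and 6.41 FPM in the control replicates (1, then 2) and 2.75 and 2.80 FPM in the stress replicates. Both stress values lay below both control values, and the stress replicates were closer to each other than the control replicates. The means were 5.70 ± 1.0 (SD, n = 2) and 2.78 ± 0.0323 (SD, n = 2) FPM, 2.04-fold higher in control, with a log2 change of -1.03 (SE 0.19, 95% interval -1.42 to -0.63; limma, adjusted p = 0.00017). Of the 16947 genes tested, 65 (0.384%) fell at least as much. PHO1 was also among the weakest genes with a peak in every library, at percentile 1.33 by level.

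The local background around PHO1 was lower in stress together with the peak. It was 1.48 and 1.70 FPM in control and 0.944 and 0.887 FPM in stress, a log2 difference of -0.80, and 0.254% of the genes tested had a more negative one. The fold enrichment was 3.20 and 3.53 in control and 2.80 and 3.07 in stress, without overlap of the groups, and its log2 difference of -0.20 did not pass the limma test (adjusted p = 0.24). With genes that lacked a peak in some libraries added to the test, each missing value at the lowest pileup of its library, the log2 change of PHO1 stayed at -1.03 and the limma adjusted p was 0.12. Of all genes called lower by pileup, 38.0% were also called lower by fold enrichment. Within 5000 bp on either side of the summit near the TSS, every peak of every library belonged to PHO1 itself, with 2 peaks in each control library and 1 in each stress library. The fragments of these peaks are part of the local background, so the background is not independent of the peak signal.

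The second control peaks lay in the body of PHO1. In control replicate 1 the summit was 2055 bp after the TSS (4.22 FPM, 608 bp long) and in control replicate 2 it was 1101 bp after the TSS (5.32 FPM, 423 bp long). The stress libraries, although deeper, had no second peak. The peaks near the TSS had their summits 128 and 69 bp after it in control, 7 bp before it in stress replicate 1 and 146 bp after it in stress replicate 2. The summed peak length was 1832 and 1027 bp in control and 326 and 1079 bp in stress, so the groups overlapped in length. Scaled to the depth of the smallest library, the peak of stress replicate 1 would not have passed the cutoff.

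The genes whose 4 log2 values lay nearest to those of PHO1 were AT5G50120, WNK9 and AT4G11950, at Euclidean distances of 0.280, 0.289 and 0.298. AT5G50120 had 5.55 and 5.78 FPM in control and 2.63 and 2.49 FPM in stress. WNK9, a kinase gene, had 4.55 and 6.25 FPM in control and 3.26 and 2.96 FPM in stress. AT4G11950 had 5.44 and 5.94 FPM in control and 2.63 and 2.37 FPM in stress. In each the control values lay above the stress values, as the choice by likeness implies.

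**Figure D3:**
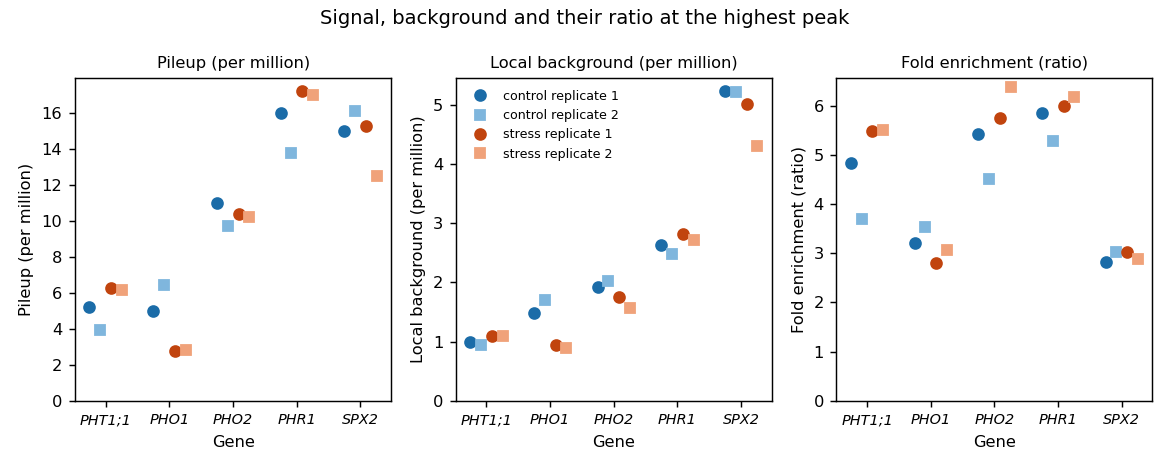
Pileup FPM (left), local background FPM (middle) and fold enrichment (right, a ratio) at the highest peak of the 5 genes with a peak in all 4 libraries, 1 point per library. For PHO1 the pileup and the background are both lower in the 2 stress libraries, and its fold enrichment lies between 2.80 and 3.53 in all 4, and for PHT1;1 the fold enrichment is higher in stress (5.48 and 5.51) than in control (4.83 and 3.70).

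PHO2, the ubiquitin-conjugating enzyme, lies at chr2:14277558-14283113 on the minus strand. Its highest peak reached 11 and 9.69 FPM in control and 10.4 and 10.2 FPM in stress. The stress values lay between the control values. The 95% interval of the log2 difference ran from -0.28 to 0.27 (limma, adjusted p = 0.99). Fold enrichment was 5.43 and 4.52 in control and 5.75 and 6.38 in stress, without overlap of the groups. Its log2 difference of 0.29 did not pass the test (limma, adjusted p = 0.087). A second peak upstream, with its summit 884, 922 and 880 bp before the TSS, was called at 6.10 and 6.41 FPM in control and at 3.46 FPM in stress replicate 2, and was not called in stress replicate 1. That of stress replicate 2 would not have passed the cutoff at the depth of the smallest library.

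PHO2 is the target of miR399, and its 5′ UTR holds 5 sites for it in exon 2 of the annotated transcript. Apart from the opposite arm of miR399c, the mature miR399 forms of the annotation share the seed GCCAAAG (bases 2 to 8, in capitals in the microRNA). The microRNA and its 5 sites are shown because the sites place the target region relative to the mark. In the sites the bases that pair with miR399a are in capitals, with G to U pairs counted as mismatches, and each site is 21 bases long on the minus strand.
miR399a: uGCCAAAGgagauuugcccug
site at chr2:14282106-14282126: tAGGGCAAATCTtCTTTGGCA
site at chr2:14281973-14281993: tAGGGCAtATCTCCTTTGGCA
site at chr2:14281884-14281904: ttGGGCAAATCTCCTTTGGCA
site at chr2:14281827-14281847: tcGaGCAAATCTCCTTTGGCA
site at chr2:14281770-14281790: tAGaGCAAATCTCCTTTGGCA

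The sites begin 987, 1120, 1209, 1266 and 1323 bp after the TSS of PHO2, downstream of the summits, which lay 231, 257, 231 and 199 bp after it. The peak over the TSS was 867 and 690 bp long in control and 1129 and 1313 bp long in stress. The first pair of sites lay inside the peak of stress replicate 2, the deepest library, and the other 3 sites lay in no peak. The loci MIR399A, MIR399B, MIR399C and MIR399D had no peak in any library, nor did IPS1, a noncoding RNA that sequesters miR399. AT4, a noncoding RNA of the same kind, had a peak of 10.2 FPM in control replicate 2 and in no other library.

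PHR1, the central transcription factor of the phosphate response, lies at chr4:14132811-14135292 on the minus strand and carried the highest level of the 10 genes in stress. Its peak reached 16.0 and 13.8 FPM in control and 17.2 and 17 FPM in stress. Both stress values lay above both control values, but the gap between the groups was smaller than the difference between the control replicates. The log2 difference was 0.20 (95% interval -0.05 to 0.45; limma, adjusted p = 0.25). The summits lay between 202 and 232 bp after the TSS in all 4 libraries, and the length was 841 and 634 bp in control and 962 and 1030 bp in stress.

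The SPX genes encode the phosphate sensors that bind PHR1. SPX2, at chr2:11338752-11340950 on the plus strand, reached 15.0 and 16.1 FPM in control and 15.3 and 12.5 FPM in stress. The groups overlapped, and stress replicate 2 was the lowest. The log2 difference was -0.17 (95% interval -0.42 to 0.09; limma, adjusted p = 0.36). The local background of SPX2 was high, between 4.30 and 5.23 FPM, and the fold enrichment was between 2.82 and 3.03 in all 4 libraries.

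SPX1, at chr5:6802282-6803655 on the plus strand, had no peak in control replicate 1 and reached 11.4 FPM in control replicate 2 and 11.3 and 10.1 FPM in stress. Where it was called, the level did not separate the groups. The fold enrichments of 2.12, 1.83 and 1.87 were the lowest of the 10 genes, over a background between 5.29 and 6.17 FPM. The summits did not coincide, at 70 bp before the TSS in control replicate 2 and 80 and 1085 bp after it in the stress replicates. SPX3, at chr2:18606410-18607853 on the plus strand, is strongly induced when phosphate is scarce, and it had no peak in any library. The nearest peaks lay 770 to 1328 bp upstream of its span.

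Peak length moved with the stress group across the genome. In 12805 of the 16947 genes tested (75.6%) the summed peak length was longer in both stress than in both control libraries, and in 395 (2.33%) it was shorter. Of the 5 genes with a peak in every library, 3 (PHT1;1, PHR1 and SPX2) were longer in both stress libraries. PHT1;1 went from 1252 and 478 bp in control to 2222 and 2489 bp in stress, the 3′ peak included. SPX2 went from 502 and 519 bp to 642 and 661 bp. A 2-against-2 comparison cannot go below an exact two-sided permutation p of 0.33, and the stress libraries were also the deeper ones, so condition and depth cannot be told apart in these lengths.

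Beside the 10 genes, 73 other phosphate genes were listed, of which 39 had a peak in every library and 20 had none. Of these 39, 6 were higher and 4 were lower in stress by the limma test and 29 did not pass it, a share of 25.6% beside 19.3% of all genes tested. The median log2 difference of the 39 was 0.09, against -0.0016 over all genes. The 4 genes PHL1, MGD2, PLDP2 and STOP1 were also called, in the same direction, by fold enrichment. WRKY6 and LPR1 had a fold enrichment difference of the opposite sign, -0.10 and 0.058 on the log2 scale, that did not pass the test. With missing peaks set to the lowest pileup of their library, the log2 changes of the 10 called genes stayed as they were, but WRKY6 alone kept its call (limma, adjusted p = 0.025) and the other 9 had limma adjusted p-values from 0.053 (LPR2) to 0.30 (LPR1).

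PHL1, a MYB factor that acts with PHR1, was the only gene called on pileup among the 7 tested signalling genes, beside 19.3% of all genes tested. It reached 3.33 and 3.28 FPM in control and 6.13 and 5.79 FPM in stress, a low level at percentile 1.85 of the genes tested. Both stress values lay above both control values, with a log2 change of 0.85 (SE 0.18; limma, adjusted p = 0.00077), and log2 fold enrichment changed by 0.79 (limma, adjusted p = 0.00036). PHL4, another MYB factor of the PHR1 family, was higher on fold enrichment, with 2.75 and 2.31 in control and 3.64 and 3.22 in stress (log2 difference 0.44; limma, adjusted p = 0.027), and its log2 pileup differed by 0.25 (limma, adjusted p = 0.25). SPX4, the remaining SPX gene of the list, had a log2 difference of -0.22 (limma, adjusted p = 0.26).

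Genes of lipid remodelling, which replace phospholipids when phosphate is short, held 3 called genes of 5 tested, 2 higher and 1 lower, beside 19.3% of all genes tested. MGD2, a galactolipid synthase, rose by 1.07 on the log2 scale (SE 0.16; limma, adjusted p = 7.2e-06), from 4.77 and 8.29 to 12.8 and 13.6 FPM, with summits up to 1494 bp from its TSS and 1 of the 4 within 1000 bp. Where a summit inside the span was required, MGD2 lacked a value in at least 1 library and was not tested. SQD2, a sulfolipid synthase, rose by 0.57 (SE 0.14; limma, adjusted p = 0.003), from 7.55 and 7.97 to 11.3 and 11.7 FPM. PLDP2, a phospholipase D, changed by -0.66 (SE 0.16; limma, adjusted p = 0.0027), with 8.43 and 7.97 FPM in control and 4.95 and 5.48 FPM in stress. In each of the 3 the groups did not overlap, which adds little for genes picked by the same test. Without 1 library in turn, the log2 change lay between 0.67 and 1.47 for MGD2, between 0.53 and 0.61 for SQD2 and between -0.73 and -0.58 for PLDP2. On fold enrichment SQD2 lost its call (limma, adjusted p = 0.051).

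The genes that link low phosphate to root growth held 3 lower genes of 5 tested and none higher, beside 11.0% lower and 8.31% higher of all genes tested. LPR2, a multicopper oxidase, had 11.2 and 10.5 FPM in control and 6.82 and 6.38 FPM in stress, a log2 change of -0.72 (SE 0.14; limma, adjusted p = 0.00038). STOP1, a zinc finger factor of proton and aluminium tolerance, had 52.4 and 48.6 FPM in control and 39.6 and 29.1 FPM in stress, a change of -0.57 (SE 0.17; limma, adjusted p = 0.011). LPR1, the close relative of LPR2, had a change of -0.47 (SE 0.17; limma, adjusted p = 0.044), with 6.33 and 8.13 FPM in control and 5.82 and 4.59 FPM in stress. The groups overlapped in none of them, which likewise adds little for genes picked by their call. LPR1 lost its call without control replicate 2 (-0.29) or stress replicate 2 (-0.30), and STOP1 without control replicate 1 (limma, adjusted p = 0.30) or control replicate 2 (limma, adjusted p = 0.21). ALMT1 and PDR2, the other genes of this group, did not pass the test.

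Of the organelle and vacuole transporters, 2 of 9 tested were higher, beside 8.31% of all genes tested. PHT5;1, which stores phosphate in the vacuole, rose by 0.59 (SE 0.14; limma, adjusted p = 0.0028), from 8.99 and 7.19 to 13.1 and 11.2 FPM, with summits up to 1042 bp from its TSS, whereas its log2 fold enrichment differed by 0.07. PHT4;5, a plastid transporter, rose by 0.43 (SE 0.15; limma, adjusted p = 0.041), from 7.66 and 6.10 to 9.77 and 8.67 FPM, whereas its log2 fold enrichment differed by 0.00068. PHT5;1 lost its call without control replicate 2 (0.43) or stress replicate 1 (0.47), and PHT4;5 without control replicate 2 (0.27), stress replicate 1 (0.34) or stress replicate 2 (0.52). WRKY6, a factor known to repress PHO1, rose by 0.56 (SE 0.12; limma, adjusted p = 0.00077), from 12.5 and 13.1 to 18.5 and 19.5 FPM. None of the 5 tested PHO1 relatives passed the test on pileup, beside 19.3% of all genes tested, and their median log2 difference was -0.29. On fold enrichment 1 of them, PHO1;H4, was lower, beside 6.07% of all genes called lower on that scale. It had 5.37 and 5.60 in control and 3.88 and 3.92 in stress (log2 difference -0.49, limma adjusted p = 0.0079). Its log2 pileup differed by -0.35 (limma, adjusted p = 0.081). No summit lay within 1000 bp of the PHO1;H4 TSS, and the farthest was 4063 bp from it, so the mark at its start is not described.

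**Figure D4:**
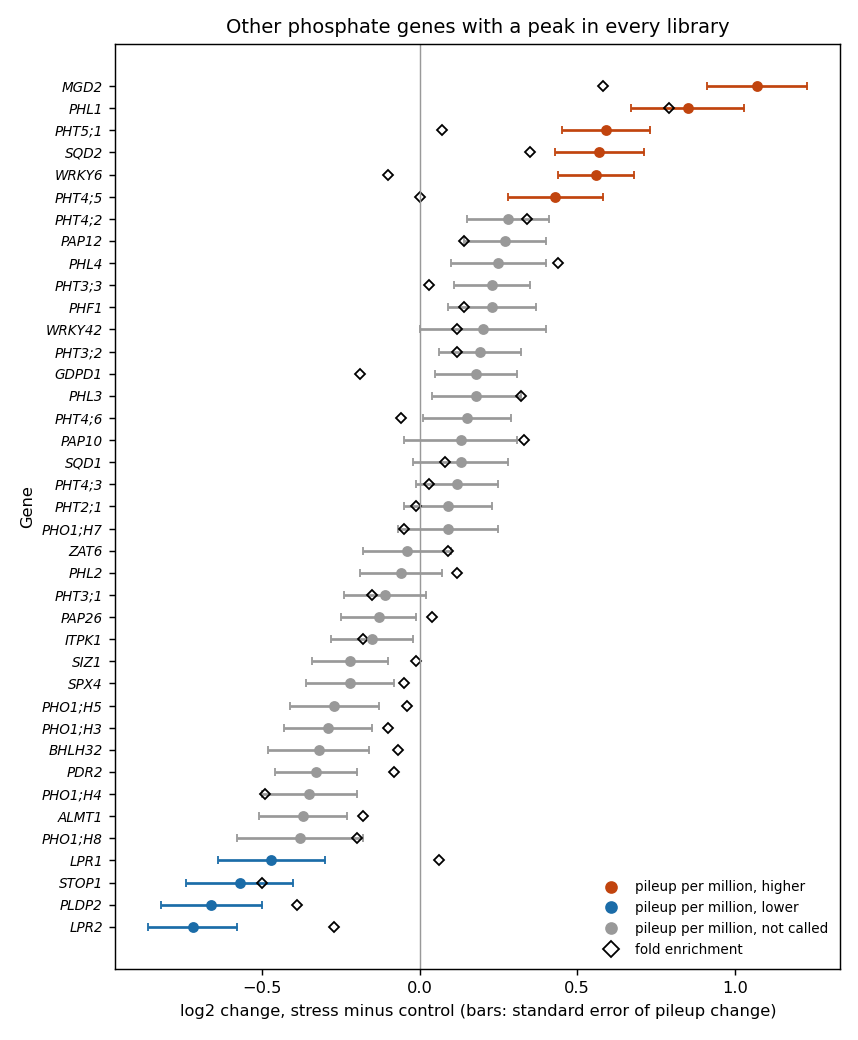
Log2 difference from control to stress of the 39 other phosphate genes with a peak in every library, for pileup FPM (filled points with bars of 1 standard error, coloured by the limma call) and for fold enrichment (open diamonds). MGD2 (1.07) and PHL1 (0.85) lie at the top and LPR2 (-0.72) and PLDP2 (-0.66) at the bottom, and the diamonds lie nearer to 0 than the points for all 10 called genes.

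Outside the genes tested, MGD3 and WRKY45 were marked in each stress library and in no control library, as were 7.10% of the genes with a peak anywhere. MGD3, a relative of MGD2, had 1.0 and 0.817 FPM in stress, under the lowest of any peak in control replicate 2 (1.41 FPM) and, for the lower value, also under that of control replicate 1 (0.888 FPM). WRKY45, a factor known to activate PHT1;1, had 11.8 and 11.9 FPM in stress. Neither summit lay within 1000 bp of the WRKY45 TSS, and the farther was 1394 bp from it, so the mark at its start is not described. PHT1;7, another importer, had 4.22 FPM in control replicate 2 and 3.82 and 4.12 FPM in stress.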

How the data were processed

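Peak tables of 4 H3K4me3 CUT&Tag libraries were analysed, 2 control and 2 stress. The labels name H3K4 methylation, and trimethylation is taken from the paper's text. The submitters' processing notes name fastp 0.19.7, Bowtie2 2.3.5.1, MACS2 and the build TAIR10. Per the file headers, the authors called peaks in each library with MACS 2.2.7.1, with no control library and a p cutoff of 1e-05. The genome size setting was 2700000000 bp, against 119.1 Mb in chromosomes 1 to 5, and the background was local, over 10000 bp. Deposited values per peak were the pileup (a signal, as a number of fragments with no scaling to depth), the fold enrichment (a ratio, pileup over background), and −log10 p-value and q-value. Local background was derived as (pileup + 1) / fold enrichment − 1, and with it a Poisson tail gave back the deposited −log10 p of 56845 peaks within 0.00119.

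Genes were taken from the RefSeq annotation of TAIR10.1, and all peaks used end within its chromosomes. For each gene the highest pileup per 1000000 fragments (FPM) in its span was compared on the log2 scale with limma 3.58.1 in R 4.3.3 (lmFit, eBayes with trend, Benjamini-Hochberg adjustment, threshold 0.05) over the 16947 genes with a peak in every library. The paper calls the replicates biological, and the labels number them with no further detail. The scripts were tested on simulated data. Intervals are 95% intervals from limma. Sequence matches used blastn 2.17.0+ and Python 3.11.15 with pandas 2.3.3, numpy 2.4.6 and scipy 1.17.1.

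The genes and the lists were chosen with earlier results of these data known. Named genes were the 10 genes, PHT1;6, at most 10 called genes of the list of 73 in each direction, and the 3 genes nearest to PHO1. Other genes of the list that are named were chosen after their values were seen. Alternatives changed the signal, scaling, peak threshold, overlap, missing peaks, unit of test, depth and replicates.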

Additional observations from a re-analysis of the deposited data

How the results depend on the processing

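Without 1 library in turn, 810 to 1123 genes were called higher and 1023 to 2746 lower, in place of 1408 and 1862. The most came without stress replicate 1 (2746 lower). Of the 10 genes 0 to 1 were then called higher, 1 was called lower throughout (PHO1) and 5 to 6 had a peak in every library used. Of the 73 listed genes 4 to 6 were then higher and 2 to 6 lower. On fold enrichment 1309 genes were higher and 1028 lower (56.0% higher, against 43.1%), with 1 of the 10 genes higher (PHT1;1), 0 lower and 3 listed genes higher. Dividing by the library median shifted log2 changes by -0.049 and gave 1388 higher and 3278 lower genes (29.7% higher), with 8 listed genes lower. With missing peaks set to the lowest pileup, 1246 were higher and 476 lower (72.4% higher), 0 of the 10 genes and 0 listed genes were lower and 2 listed genes higher. With a −log10 q of at least 10, 0 of the 10 genes were lower, 3 had a peak in every library and 3 listed genes were higher. With a fold enrichment of at least 4, 494 genes were higher and 830 lower, 0 of the 10 genes were lower, 2 had a peak in every library and 2 listed genes were higher and 2 lower. PHO1 had no value under either threshold. With peaks within 1 kb of the TSS, with summits inside the span, and with merged regions, 1 of the 10 genes (PHT1;1) was higher, and merged regions gave 7 listed genes lower. Summed length was longer in stress in 3 to 5 genes without 1 library, 5 without control replicate 1. WRKY6 (-0.10) and LPR1 (0.058) reversed on fold enrichment. With a replicate block 1407 genes were higher and 1757 lower, and the call of none of the 10 genes changed. The labels state no pairing of same-numbered libraries. Their deviations correlated at -0.00346 across genes, which cannot show whether they were grown or prepared as pairs. The cause of these changes was not tested. A group of 2 libraries and the unknown pileup where no peak was called limit what these tables can show.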
